A study of Mus musculus with 32 samples.

Results

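The 37 homologous recombination and Fanconi genes of the mouse array were read from 54 of its 55681 probes, which were chosen by gene name alone: the breast cancer genes Brca1 and Brca2 with their partners, the sensors and kinases of broken DNA, the strand exchange proteins, the helicases and nucleases, and every probe whose name starts with Fanc. The question put to them was whether Brca1 moved together with the proteins it works with, in liver cells from a tumor-bearing liver and in the tumor cells themselves.

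Homologous recombination repairs a broken chromosome by copying the intact sister. The ends are cut back, the Brca1-Bard1 pair and the bridge protein Palb2 bring in Brca2, and the cut-back strand is then paired with the matching sequence. The Fanconi pathway removes links between the DNA strands: a core complex marks Fancd2 and Fanci, which then call in nucleases and hand over to recombination. Most of these genes are used in dividing cells, where they are switched on with DNA replication.

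Endothelial, Ito and Kupffer cells came from livers of male Balb/c mice of 6 to 8 weeks, isolated 14 days (by the study's methods; a figure legend gives 1 day more) after C26 colon carcinoma cells (TME groups ET, IT and KT) or saline (control groups EC, IC and KC) had been injected into the spleen. Endothelial cells form the wall of the sinusoids, Ito cells are also called stellate cells and Kupffer cells are the macrophages that live in the liver. They were separated by density and adherence and kept in culture for up to a day. TM were cells of the tumor liver metastasis and TP cells of the CRC (colorectal cancer) primary. C26 is a single line, and the sources used here do not say where the TP cells were taken from. Each of the 8 groups had 4 samples, which the study's methods call biological replicates; the labels do not say that each came from its own mouse, so p-values measure the spread between these samples, which may be in part technical.

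Each array held a pair of samples with the same number. The Cy3 channel was always a control or TM sample and the Cy5 channel always a TME or TP sample, so dye and group cannot be told apart in ET vs EC, IT vs IC, KT vs KC and TP vs TM. The comparisons TM vs KC, TP vs KT, IC vs EC and IT vs ET were each made within 1 dye and 1 slide. Between 38.4 and 57.1% of spots per channel were well above background. On array 4 of the Ito and of the Kupffer cells, the TME minus control differences of 17104 probes measured in all channels ran against the mean of the other 3 arrays (r = -0.66 and r = -0.60 across probes). Tumor arrays 1 and 4 also ran weakly against the other tumor arrays (r = -0.20 and r = -0.07). Counts of member calls that rest on the Ito, Kupffer or tumor arrays are therefore also given with replicates left out. Counts by role, in the contrasts of TME changes between cell types and in the other gene lists are given with all samples only. Of 8 endothelial marker genes, 8 were well above background on all 4 channels of every liver cell group, and of 8 Kupffer markers at least 7 were, so each fraction carried marker RNA of the other cell types. The Kupffer lectin Clec4f had a mean log2 level of 15.51 in KC against 12.81 in EC and 14.79 in IC, and 2.87 in TM. Cd163, Cd68, Csf1r, Timd4 and Vsig4 were also higher in KC than IC, while Marco (14.905 and 15.147) and Emr1 (12.935 and 13.026) were lower. Of 8 Ito markers, 6 were well above background on all 4 channels of EC and 6 on all 4 of IC. Their summed log2 level was 17.93 to 18.32 in EC and 17.02 to 18.11 in IC. Dcn (mean 18.13 and 17.40) carried this sum. The means of Acta2, Col1a1, Des, Pdgfrb and Reln were also lower in IC, while Gfap (3.38 and 3.93) and Lrat (3.47 and 4.16) were higher. As a list these markers were not higher in the Ito fraction, and the cell groups are named here by their labels.

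Levels below are log2 of the deposited intensity, whose lowest value is 1.78. Levels are compared for 1 probe across samples and never between probes. A difference was called at an adjusted p under 0.05 in limma's moderated test, fitted to all 32 channels and adjusted over all 55681 probes. In bulk RNA, fewer cells that express a gene and less RNA per cell cannot be told apart.

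Brca1 was read by a single probe, and since the findings on it rest on these 60 bases alone they are shown. The array files place it on the minus strand at chr11:101359283-101363319, a span of 4037 bases that is longer than the probe, and do not name the genome build. The probe is written 5′ to 3′ with no part capitalised.
Brca1 probe: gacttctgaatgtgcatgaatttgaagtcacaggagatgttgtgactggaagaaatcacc

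Brca1 was the only member called between TME and control cells, and it was called in all 3 cell types. In endothelial cells its level was 2.14, 2.91, 2.27 and 2.15 in the EC samples and 6.37, 6.32, 6.38 and 6.24 in the ET samples. In Ito cells it was 3.93, 2.44, 2.20 and 1.98 in IC and 7.11, 7.04, 6.72 and 7.39 in IT. In Kupffer cells it was 2.25, 3.39, 2.95 and 2.47 in KC and 7.04, 7.15, 5.59 and 6.71 in KT. All 12 TME values lay above all 12 control values.

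**Figure D1:**
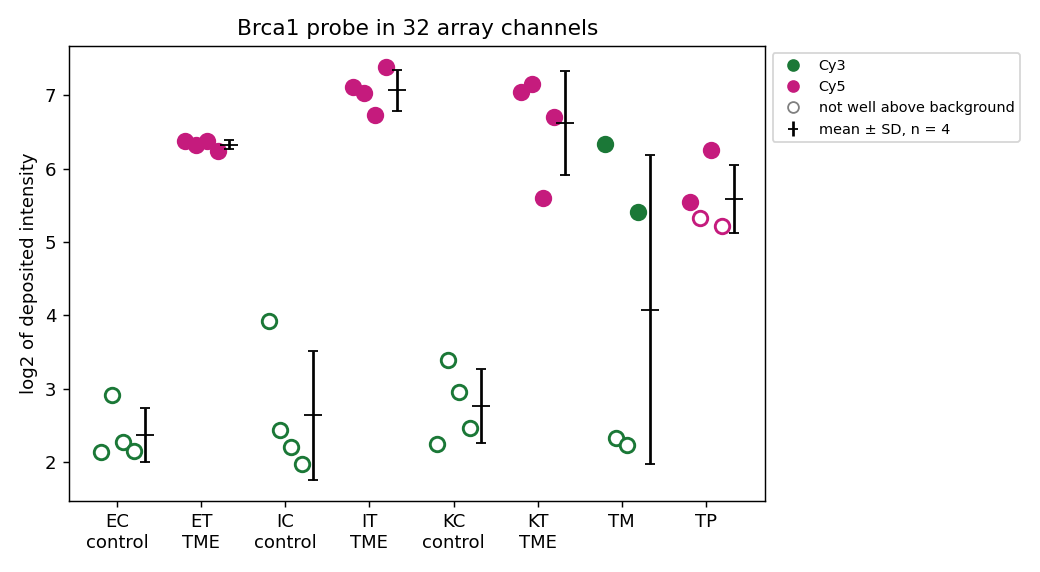
Brca1 level (log2 of deposited intensity) in each of the 32 channels by group, with the group mean and SD (n = 4) beside the points; color gives the dye and open points were not well above background. All 12 TME channels sit at 5.59 or higher and all 12 control channels at 3.93 or lower, while the TM channels split into 2 high and 2 low values.

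The difference in Brca1 was 3.96 ± 0.61 (SE) for ET vs EC, with an adjusted p of 0.000408 in limma. For IT vs IC it was 4.43 ± 0.61 with an adjusted p of 0.000122 in limma. For KT vs KC it was 3.86 ± 0.61 with an adjusted p of 0.000885 in limma. An exact two-sided permutation test of 4 channels against 4 gave p = 0.0286 in each cell type, the smallest value that design allows. The difference was positive on 4 of 4 arrays in each cell type, also on array 4 of the Ito cells (5.41) and of the Kupffer cells (4.23), where the bulk of probes ran the other way. The labels were used as given. Whether control and TME samples were exchanged on these 2 arrays cannot be told apart here, and with exchanged labels their Brca1 differences would have the opposite sign, since the Cy5 channel was the higher one on all 12 arrays. Without replicate 4 the differences were 3.91, 4.10 and 3.73.

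These sizes rest on control values at the floor of the array. Its spots passed the scanner's test for a signal well above background in 12 of 12 TME and 0 of 12 control channels, so only a lower bound of the fold can be given. After normexp background correction with loess and Aquantile normalization, Brca1 was at least 2.07-fold higher in ET than EC, at least 2.54-fold in IT than IC and at least 2.13-fold in KT than KC. The raw mean signal of the spot was 152 to 271 units over a local background of 81.5 to 98 units in the TME channels (Cy5), and 31.8 to 53.6 units over 22 to 29 units in the control channels (Cy3).

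The tumor arrays carry the same dyes, and there the Brca1 level was 6.33, 2.33, 2.24 and 5.41 in TM (Cy3) and 5.55, 5.33, 6.26 and 5.22 in TP (Cy5). TP lay above TM by 1.51 ± 0.61 (SE), which was not called (adjusted p = 0.197 in limma), and the groups overlap. With this TP minus TM difference subtracted in the same fit, the Brca1 differences became 2.45, 2.92 and 2.35 in endothelial, Ito and Kupffer cells and none was called (adjusted p = 0.245, 0.195 and 0.46 in limma). With normexp, loess and Aquantile values the TP minus TM difference was 0.18, and after its subtraction, an alternative added after the data were seen, the Brca1 differences were 1.12, 1.21 and 1.00 (adjusted p = 0.0126, 0.0197 and 0.0605 in limma). What part dye has in the Brca1 difference cannot be told apart from the TME by this design.

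Among all 55681 probes, 12 passed in every TME channel and in no control channel, which is 0.0216%, and Brca1 was the only member among them. None showed the opposite pattern. Of these 12 probes, 5 were well above background on all 4 TP channels and 4 on none, and 10 of the 12 were so on no TM channel. In the tumor cells Brca1 passed in replicates 1 and 4 of TM and in replicates 1 and 3 of TP. Because each of its TME changes is only a lower bound, the size of the Brca1 change cannot be compared between the 3 cell types. In the limma contrasts of the TME changes between cell types, endothelial against Ito, endothelial against Kupffer and Ito against Kupffer, 0 of 54 member probes were called, beside 0.111, 0.0808 and 0.00359% of all probes, and 1, 1 and 2 member probes had an unadjusted p under 0.05.

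None of the partners of Brca1 was called between TME and control cells. Bard1, which pairs with Brca1, had a level of 7.87, 7.46, 7.44 and 7.96 in EC and 7.41, 7.47, 6.99 and 7.21 in ET, a difference of -0.41 ± 0.28 (SE). Brca2 stood at 4.45, 5.0, 5.14 and 4.43 in EC and at 4.55, 5.88, 4.89 and 4.67 in ET. For both genes the EC and ET values overlap.

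Palb2, which joins Brca1 to Brca2, differed by 0.14, 0.09 and -0.08 between TME and control in endothelial, Ito and Kupffer cells. Brip1, a helicase that binds Brca1, differed by -0.02, 0.15 and 0.20. Rbbp8, the end-resection factor that binds Brca1, differed by -0.34, -0.68 and 0.18, and was lower in ET than EC on 4 of 4 arrays without passing the test (adjusted p = 1 in limma). The Rbbp8 difference in Ito cells rests on IT replicate 2 and was -0.08 without it. Without replicate 4 the Palb2, Brip1 and Rbbp8 differences were 0.47, 0.41 and -1.02 for IT vs IC, and 0.04, 0.13 and 0.18 for KT vs KC. The sign of the small Palb2 differences in Ito and Kupffer cells, of the Brip1 differences in endothelial and Ito cells and of the Rbbp8 difference in Kupffer cells changed when single replicates were left out. Across the 5 partners and 3 cell types no difference was called, and their adjusted p-values in limma ran from 0.518 to 1.

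Over the whole set, 1 of 54 member probes was called in ET vs EC, 1 in IT vs IC and 1 in KT vs KC, beside 1.14, 0.289 and 0.436% of all probes, and each time it was Brca1. The median difference of the 54 member probes was 0.00, 0.06 and 0.02 in the 3 comparisons, and that of all probes 0.01, 0.00 and -0.00. Without Brca1 the count was 0 of 53 in each, with 2, 6 and 2 probes at an unadjusted p under 0.05. The methods' t-test with Benjamini-Hochberg adjustment called Brca1 in ET vs EC and IT vs IC, called no other member, and called none in KT vs KC. Nbn, a subunit of the break sensor, was lower in the TME on 4 of 4 endothelial arrays (-0.48 ± 0.25, SE) and 4 of 4 Ito arrays (-0.52 ± 0.25, SE), neither of them called. On Ito array 4 its values were nearly equal (9.068 in IC and 9.064 in IT), and the Ito difference was -0.20 without replicate 2. Of 56 probes of 39 other genes of the pathway, 1 was called in ET vs EC, the single-strand binding subunit Rpa1 (-1.38, adjusted p = 0.0262 in limma), and 0 in IT vs IC and KT vs KC, with 3 and 1 at an unadjusted p under 0.05.

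**Figure D2:**
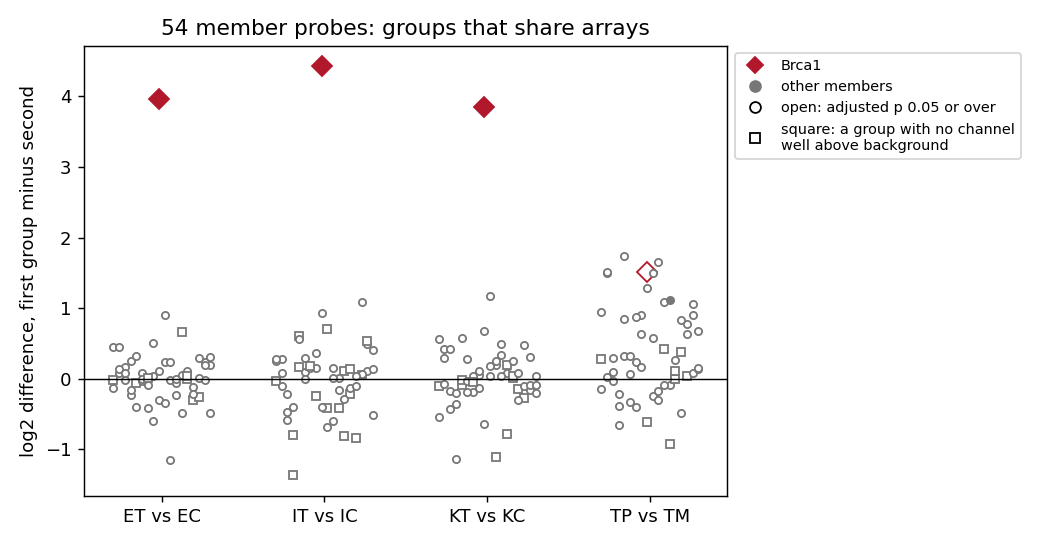
Fitted log2 difference of each of the 54 member probes in the 4 comparisons between groups that share arrays, Brca1 as diamonds, with filled symbols for an adjusted p under 0.05 in limma and squares for other members where one of the groups had no channel well above background; position along the axis within a comparison has no meaning. Brca1 stands at 3.86 to 4.43 in the 3 liver cell types, and the other members lie between -1.37 and 1.17 there.

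Leaving out replicate 4, whose Ito and Kupffer arrays ran against the others, added calls in both of those cell types. In IT vs IC 5 of 54 member probes were then called beside 7.83% of all probes, and in KT vs KC 2 of 54 beside 3.45%. In IT vs IC the strand exchange gene Xrcc2 was called higher (1.52). The core gene Fancg was also called higher, by at least 1.18-fold, with no IC channel well above background. The damage kinase Atr was called lower by 1.07 with one of its probes and by at least 1.6003-fold with the other, which was well above background on no IT channel. In KT vs KC that other probe was called lower by at least 1.28-fold, with none of the 3 KT channels well above background. With all samples none of these differences was called, so for Atr, Xrcc2 and Fancg the call depends on leaving out replicate 4. That fit drops replicate 4 from every group, so it does not single out 1 array.

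Several marker lists did not overlap between EC and ET. Of 6 neutrophil genes, 6 were well above background on all 4 ET channels and 3 on all 4 EC channels, and their summed log2 level ran from 9.80 to 10.25 in EC and from 11.87 to 12.92 in ET. Kupffer markers were summed at 13.87 to 14.42 in EC and 14.43 to 14.98 in ET. Lymphocyte markers were at 9.67 to 9.82 and 9.93 to 10.47, and Ito markers, lower in ET, at 17.93 to 18.32 and 17.19 to 17.90. Members of these lists went both ways. Among Kupffer markers, Clec4f (12.808 and 12.739) and Timd4 (9.44 and 8.05) were lower in ET, while Cd68, Csf1r, Emr1, Marco and Vsig4 were higher. Of the lymphocyte markers only Nkg7 (7.53 and 8.89) was higher. The Ito sum was carried by Dcn (18.13 and 17.52). Col1a1 (7.862 and 8.015) and Gfap (3.38 and 3.72) were higher in ET and the other Ito markers lower. For neutrophil genes in IC and IT the ranges were 10.35 to 13.86 and 10.698 to 13.763, and in KC and KT 11.59 to 13.73 and 11.71 to 13.54. The overlap came with replicate 4. Without it the ranges were 10.35 to 10.51 in IC and 13.05 to 13.76 in IT, and 11.59 to 12.004 in KC and 13.43 to 13.54 in KT, while on array 4 the summed level was 13.86 in IC and 10.698 in IT, and 13.73 in KC and 11.71 in KT. Also without replicate 4, lymphocyte markers were summed at 9.47 to 9.63 in IC and 10.39 to 11.93 in IT, and Kupffer markers at 15.29 to 16.81 in KC and 17.62 to 17.66 in KT. Tumor epithelium markers went the other way in Kupffer cells, at 9.06 to 9.37 in KC and 7.69 to 7.95 in KT without replicate 4, and on array 4 at 7.80 and 9.21. Over all 4 samples they overlapped in the other cell types. They were at 12.66 to 12.73 in EC and 11.10 to 13.56 in ET, and at 12.28 to 12.66 in IC and 12.19 to 17.23 in IT. The highest IT sum lay above every TM and TP sum. This list did not set the tumor cells apart, since its sum was 12.66 to 12.73 in EC and 10.21 to 11.52 in TM. Krt18 and Krt8 carried it, and Epcam and Cdh1 were well above background on no TM or TP channel. Endothelial markers were summed at 16.25 to 16.92 in KC and 17.43 to 17.54 in KT over all 4 samples. This sum was carried by Mcam (mean 16.38 and 17.34), and the other members went both ways. Cdh5 (13.355 and 13.003), Clec4g (9.99 and 9.52) and Kdr (10.57 and 10.25) were lower in KT. Stab2 (11.318 and 11.814), Pecam1 (10.058 and 10.309), Lyve1 (11.138 and 11.197) and Tek (8.954 and 9.028) were higher. Over all 4 samples the mean level of each of the 6 neutrophil genes was higher in IT than IC, for example S100a9 at 11.65 against 9.48 and the granule gene Ltf at 6.62 against 3.48. Among 32 probes of cycling genes, Mki67, the proliferation antigen, was called higher in ET than EC (2.30 ± 0.53, SE, adjusted p = 0.0231 in limma). None was called in IT vs IC or KT vs KC with all samples, array 4 included. In ET vs EC 29 of the 32 cycling probes had a positive difference and 11 had an unadjusted p under 0.05, with a median difference of 0.73 beside 0.01 for all probes. The summed level of the cycling probes ran from 14.86 to 14.92 in EC and from 14.85 to 15.50 in ET. Their part in the Brca1 result was not tested.

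In the tumor cells most member probes were called higher than in Kupffer cells of the same dye and slide. Brca1 was not among those called with all samples, but was called in TM vs KC without replicate 2 or 3. In TM vs KC, 34 member probes were called higher and 1 lower. This is 35 of 54 beside 39.4% of all probes, and 23.3% of all probes were called higher. In TP vs KT, 41 were called higher and 2 lower, together 43 of 54 beside 43.6% of all probes, with 25.7% of all probes called higher. All 34 probes that were higher in TM vs KC were also higher in TP vs KT, where they made up 82.9% of the 41. The share of all probes called higher in both was not counted, so this overlap has no background beside it. The 2 comparisons share no samples, but their samples share arrays. The median member difference was 1.53 and 1.91, and the median of all probes 0.08 and 0.10. Without replicate 4 there were 36 calls in TM vs KC (median difference 1.45) and 39 in TP vs KT (1.92), beside 37.7 and 39.4% of all probes. Of the calls with all samples, 4 of 35 in TM vs KC and 10 of 43 in TP vs KT were lost when some single replicate was left out. The methods' t-test called 28 member probes in TM vs KC and 39 in TP vs KT, beside 31.1 and 41.6% of all probes.

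Over the whole set 23 of 54 member probes were well above background in all 24 liver and 8 tumor channels. Of all 55681 probes, 17104 were so in all 32 channels. On no channel were 5 member probes well above background, among them all 3 probes of the meiotic recombinase Dmc1. For this second count no number over all probes is given here.

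**Figure D3:**
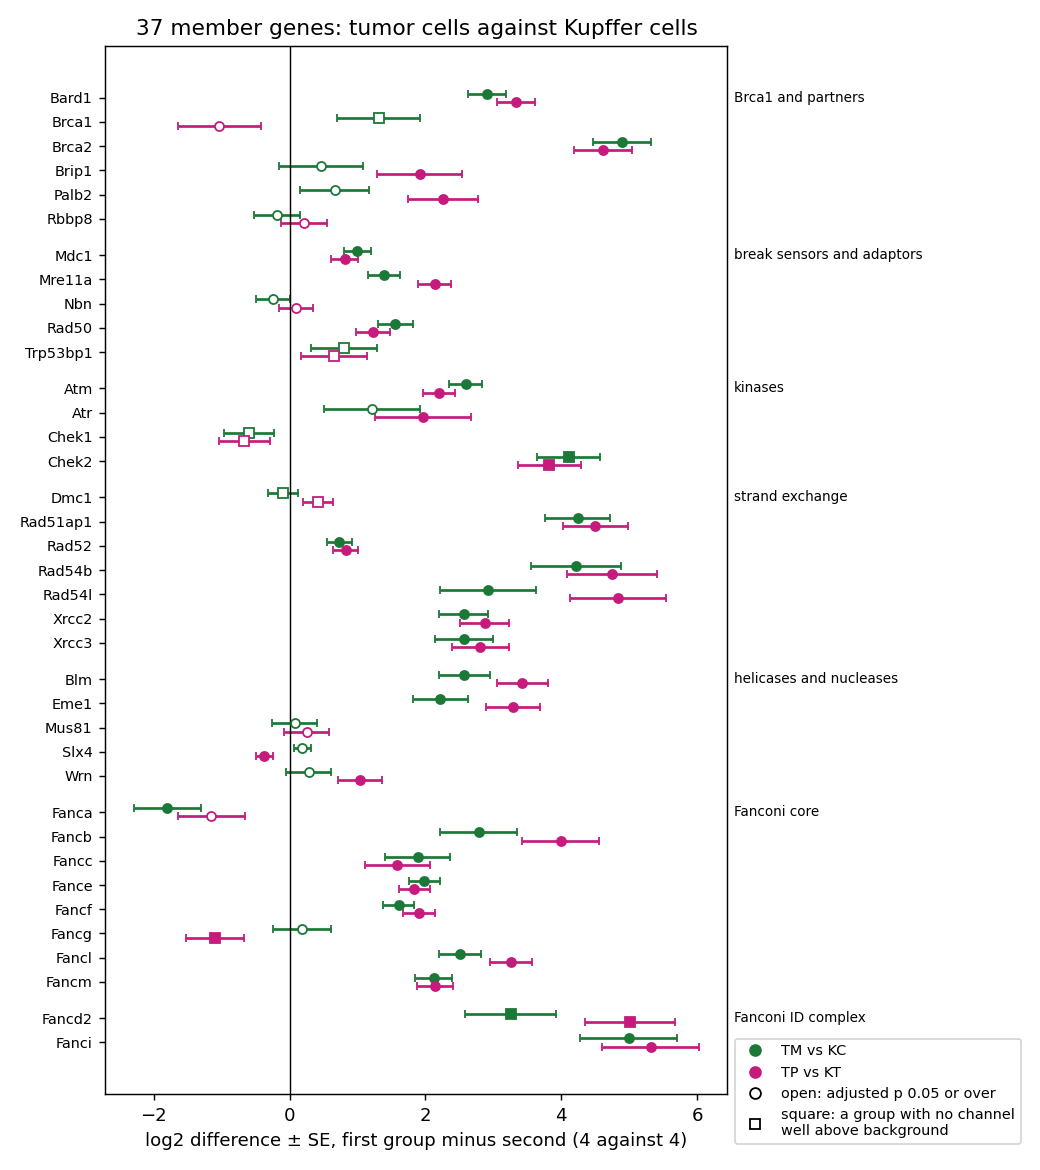
Log2 difference with its SE for each of the 37 genes (probe with the highest variance) between tumor cells and Kupffer cells of the same dye and slide, ordered by role; filled points had an adjusted p under 0.05 in limma, and squares mark a comparison in which a group had no channel well above background, so that the size is not measured. Fanci, Brca2, Rad51ap1 and Rad54b lie at 4.22 or more in both comparisons, Brca1 is open in both, and Fanca lies below 0.

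Among Brca1 and its partners, Brca2 changed most between tumor and Kupffer cells. Its level was 4.26, 4.68, 3.30 and 4.92 in KC and 9.70, 8.93, 9.20 and 8.91 in TM, with no overlap. The difference was 4.89 ± 0.43 (SE) in TM vs KC (adjusted p = 2.25e-10 in limma) and 4.61 ± 0.43 in TP vs KT (adjusted p = 5.91e-10 in limma). Bard1 rose by 2.90 in TM and 3.33 in TP with the probe of highest variance, and its other probes were also called. One of them rose by 0.55 in TM and 0.59 in TP, calls that were lost without replicate 1 or 2 and without replicate 1 or 4. The other rose by 1.80 in TM; in TP it was at least 1.56-fold higher than in KT, where it was well above background on no channel.

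With all samples, Palb2 and Brip1 were called in TP and not in TM. Brip1 stood at 8.04, 3.20, 4.31 and 7.03 in TM and at 7.29, 6.61, 7.82 and 7.47 in TP, against 5.40, 5.18, 4.81 and 5.33 in KC. The TM values fall on both sides of KC, while all TP values lie above those of KT, which ran from 5.0 to 5.73. Brip1 was 0.46 ± 0.62 (SE) higher in TM vs KC and 1.92 ± 0.62 in TP vs KT (adjusted p = 0.629 and 0.0134 in limma), the TM difference turned to -0.26 without replicate 1, and the TP call was lost without replicate 3 or 4 (adjusted p = 0.114 and 0.0537 in limma). Palb2 differed by 0.66 ± 0.51 (SE) and 2.26 ± 0.51 (adjusted p = 0.349 and 0.000596 in limma), while its other probe was called in neither (0.94 and 1.31). The first Palb2 probe was also called in TM vs KC without replicate 2 (1.34, adjusted p = 0.0267 in limma), and in TP vs KT it kept its call without each replicate in turn (2.05 to 2.52). Whether the TM and TP differences themselves differ was not tested.

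Brca1 was called neither in TM vs KC (adjusted p = 0.0956 in limma) nor in TP vs KT (-1.04 ± 0.61, SE, adjusted p = 0.188 in limma). In TM vs KC it was called higher without replicate 2 (adjusted p = 0.0284 in limma) and without replicate 3 (adjusted p = 0.0285 in limma), so whether it is called depends on these replicates. No KC channel and 2 of 4 TM channels were well above background for Brca1, and the other 2 TM values lay within or under the KC values. TP values of 5.22 to 6.26 thus overlapped with KT values of 5.59 to 7.15, the 4 TME Kupffer channels of the same dye. Rbbp8 differed by -0.18 and 0.21 and was not called.

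Of the break sensors and adaptors, 5 of 7 probes rose in each comparison and none fell. Mre11a, the nuclease of the sensor complex, rose by 1.39 and 2.13, and its ATPase partner Rad50 by 1.56 and 1.23. Nbn, the other subunit of that complex, differed by -0.25 and 0.10 and was not called. Mdc1, the scaffold at marked chromatin, rose by 0.99 and 0.81.

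Of 6 kinase probes, 4 rose in TM and 5 in TP. Chek2, a checkpoint kinase, was well above background on no control or TME channel other than 2 of ET, and on 4 of 4 TM and 3 of 4 TP channels. It was at least 2.15-fold higher in TM than KC and at least 2.13-fold higher in TP than KT, with adjusted p of 2.89e-08 and 9.16e-08 in limma. Atm, the kinase that answers to double-strand breaks, rose by 2.59 and 2.20. Chek1, the other checkpoint kinase, was well above background on 3 of 4 KC and 4 of 4 KT channels and on no tumor channel, and was called in neither comparison (adjusted p = 0.232 and 0.162 in limma).

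Of the 11 strand exchange probes, 8 rose in each comparison. Rad51ap1, which helps a strand invade the matching duplex, had levels of 6.43, 6.04, 4.92 and 7.02 in KC and 11.62, 8.91, 9.96 and 10.87 in TM, a rise of 4.24 ± 0.48 (SE, adjusted p = 2.81e-08 in limma). In TP it rose by 4.50. Rad54b rose by 4.22 and 4.75 and Rad54l by 2.92 and 4.84; both are motor proteins that move along DNA. The Rad54l call in TM vs KC was lost in the fit of TM and KC alone (adjusted p = 0.0625 in limma) and with the methods' t-test. The 3 probes not called in either were those of Dmc1.

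The helicases and nucleases were mixed. The helicase Blm rose by 2.57 and 3.43, and Eme1, a subunit of a junction-cutting nuclease, by 2.22 and 3.29. Mus81, the catalytic partner of Eme1, differed by 0.07 and 0.25 and was not called. Slx4, the nuclease scaffold, stood at 10.31, 10.33, 10.34 and 10.03 in KT and at 9.87, 9.87, 9.89 and 9.90 in TP, a small fall of 0.37 (adjusted p = 0.017 in limma) that was lost with the 75th percentile scaling or without replicate 1 or 2. Wrn, a helicase, rose in TP by 1.04, a call lost without replicate 3 or 4, and differed by 0.28 in TM, not called. Its other probe was well above background on no channel and gives no usable level, although it counts among those called higher in TP vs KT.

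Of 12 Fanconi core probes, 9 rose and 1 fell in TM, and 10 rose and 1 fell in TP. Fancb, a core subunit, rose by 2.79 and 3.99, the first of them not called with the methods' t-test. Fancl, the ubiquitin ligase of the core, rose by 2.51 and 3.26. Fance rose by 1.99 and 1.84 and Fancf by 1.61 and 1.91. Fancg was called lower in TP than KT (adjusted p = 0.0366 in limma), at least 1.02-fold, and was well above background on 3 of 4 KT and no TP channels; without replicate 1 or 3 it was not called.

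Fanca, another core subunit, had its highest mean level in Kupffer cells. It stood at 11.87, 11.83, 11.36 and 11.68 in KC and at 11.66, 11.63, 11.64 and 11.93 in KT, against 8.07 to 8.97 in EC and 8.5 to 10.30 in IC, which lay on the other slide. TM values were 11.35, 8.59, 8.97 and 10.62. The TM minus KC difference was -1.80 ± 0.50 (SE, adjusted p = 0.00426 in limma), which was not called without replicate 2 (-1.32, adjusted p = 0.0776 in limma) or in the fit of TM and KC alone (adjusted p = 0.0655 in limma). In TP vs KT the difference was -1.15 (adjusted p = 0.0631 in limma). The other Fanca probe was well above background on no channel, and although it counts among the 10 called higher in TP vs KT (0.87), it gives no usable level.

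The Fanconi ID pair rose in both. Fancd2 was well above background on 0 of 24 liver channels, 3 of 4 TM and 4 of 4 TP channels. Its levels were 8.08, 2.21, 4.80 and 6.74 in TM and 7.35, 6.70, 7.63 and 7.13 in TP. It was at least 2.10-fold higher in TM than KC and at least 2.99-fold higher in TP than KT (adjusted p = 0.000216 and 4.15e-07 in limma). The TM bound includes replicate 2, which lay within the KC values (2.16 to 2.26). In TM vs KC the methods' t-test called 1 of the 3 probes of this pair, where limma called 2, and Fancd2 lost its call. Fanci rose by 4.99 and 5.32 with its probe of highest variance. Its other probe, on another transcript, differed by 0.25 in TM vs KC, not called, and was called higher in TP vs KT (adjusted p = 0.0213 in limma), by at least 1.39-fold, with 1 of 4 TP and no KT channels well above background, a call lost without replicate 2 or 4.

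Other genes of the pathway went the same way in number. Of 56 probes of 39 further recombination and Fanconi genes, 32 were called higher and 7 lower in TM vs KC, and 32 and 6 in TP vs KT. The exonuclease Exo1 rose by 5.77 and 6.44, and Ube2t, the ubiquitin-conjugating enzyme of the Fanconi core, by 5.38 and 5.84. Of 17 probes for the competing end joining repair, 9 rose and 4 fell in each comparison; the 4 were all probes of the nuclease Dclre1c (Artemis), at -1.53 to -2.25 in TM and -1.80 to -1.99 in TP, while the Ku subunit Xrcc5 rose by 4.94 and 5.78.

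Cycling genes were also higher in the tumor cells. Of 32 cycling probes, 29 were higher and 1 lower in TM vs KC, and 30 were higher in TP vs KT, with a median difference of 4.11 and 5.02. Their summed log2 level was 14.32 to 14.63 in KC and 14.49 to 14.54 in KT, and 15.91 to 18.27 in TM and 17.43 to 18.36 in TP. Kupffer markers were summed at 15.29 to 17.80 in KC and 7.65 to 9.78 in TM, with Clec4f, Timd4 and Vsig4 well above background on no TM channel. The part of cell division in the members' differences was not tested.

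Within the tumor groups the members split the TM samples. In 36 of 54 member probes, TM replicates 1 and 4 both lay above TM replicates 2 and 3, and in 4 both lay below, beside 23.4% and 27.3% of all probes. Among the cycling probes 31 of 32 had replicates 1 and 4 above. Fanci stood at 10.32, 5.89, 6.94 and 9.52 in TM and at 9.18, 9.11, 10.25 and 10.10 in TP. Rad54l stood at 10.03, 5.52, 6.23 and 8.86 in TM and at 8.82, 8.42, 9.23 and 9.31 in TP. The Brca1, Brip1 and Fancd2 levels given above split the TM samples alike, with replicates 1 and 4 above replicates 2 and 3. Brca2 did not, with 9.70, 8.93, 9.20 and 8.91 in TM, nor did Fance, with 12.41, 12.71, 12.91 and 12.48.

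**Figure D4:**
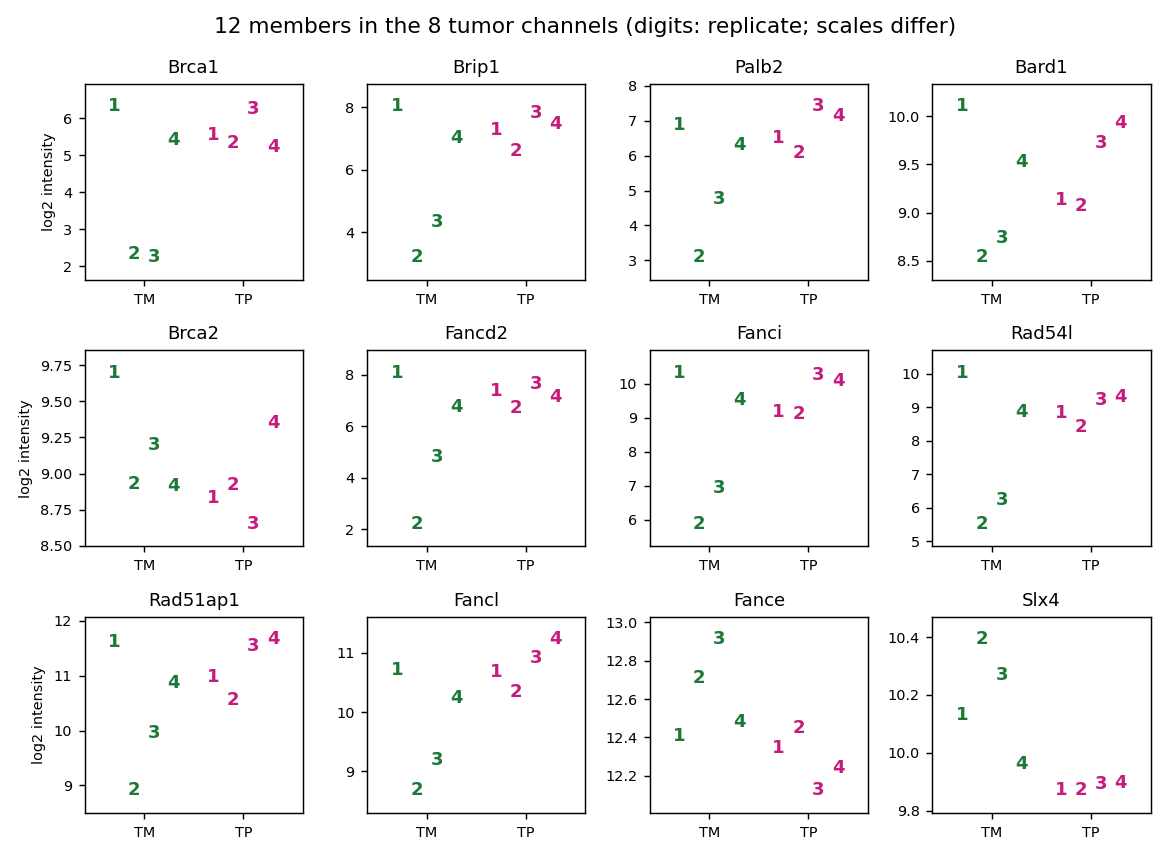
Log2 intensity of 12 members in the 4 TM and 4 TP channels, with the replicate number as the symbol and a separate scale in each panel. TM replicates 2 and 3 lie below replicates 1 and 4 for Brca1, Fancd2 and Fanci, but not for Brca2, Fance or Slx4.

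In TP vs TM, of 54 member probes 1 was called, beside 3.01% of all probes: a probe of Fancl, higher in TP by 1.11 ± 0.29 (SE, adjusted p = 0.0339 in limma) and on 4 of 4 arrays. The other Fancl probe differed by 1.09 (adjusted p = 0.0545 in limma). The Fancl call was lost in the fit of the TP and TM samples alone, with the 75th percentile scaling, with the methods' t-test and without replicate 2, 3 or 4. Without replicate 1 there were 10 calls beside 4.44% of all probes, all higher in TP: both Fancl probes, Brca1 (2.27), Brip1 (2.45), Palb2 (2.15), Fancd2 (2.57), Fancb, Eme1, Mre11a and Xrcc2. With the array as a replicate block there were 2, beside 3.97% of all probes.

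Between the liver cell types on slide 1, the members were lower in Ito than in endothelial cells where they were called, with 1 exception. In IC vs EC, 9 member probes were called lower and 1 higher, together 10 of 54 beside 9.89% of all probes, with 5.72% of all probes lower. In IT vs ET, 7 were called lower and 0 higher, beside 8.26% of all probes in either direction and 4.78% lower. The median member difference was -0.39 and -0.42, and that of all probes 0.01 and -0.00. Of the probes called lower, 4 were so in both comparisons, which is 44.4% of the first list and 57.1% of the second: those of Bard1, Brca2, Slx4 and Xrcc3. The share of all probes called lower in both was not counted.

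Bard1 stood at 7.44 to 7.96 in EC and 5.14 to 5.99 in IC, a difference of -2.06 ± 0.28 (SE, adjusted p = 1.93e-05 in limma), and differed by -1.48 in IT vs ET (adjusted p = 0.000989 in limma). A further Bard1 probe was called in IC vs EC, where it was well above background on no IC channel and at least 1.40-fold lower than in EC, and the remaining one in neither (-0.18 and 0.02). Brca2 differed by -1.34 in IC vs EC, with 1 of 4 IC channels well above background, and was at least 1.27-fold lower in IT than ET, with 0 of 4 IT channels so. It differed by -0.28 in IC vs EC with the normexp, loess and Aquantile values. Xrcc3, a strand exchange gene, differed by -1.41 and -1.58, and its calls were lost with those values (adjusted p = 0.153 and 0.0869 in limma).

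Slx4 stood at 9.75, 9.82, 9.97 and 9.77 in EC and 9.45, 9.43, 9.45 and 9.16 in IC, with no overlap, and differed by -0.46 and -0.68. Fance was called lower in IC with both probes (-0.75 and -0.87) and Fancf in IT (-0.88). Xrcc2 was called lower in IC with one probe (-1.26) and with the other, at least 1.22-fold, which was well above background on no IC channel. With the normexp, loess and Aquantile values the first Xrcc2 probe differed by -0.26 and was not called (adjusted p = 0.416 in limma). Its call was also lost with the 75th percentile scaling, in the fit of the 2 groups alone and with the methods' t-test. Also called lower in IT vs ET were single probes of Fancc (-1.16) and Rad50 (-0.86). Rad52, the mediator of strand annealing, was the only member called higher, by 0.57 in IC vs EC (adjusted p = 0.0451 in limma), a call lost without replicate 1, 2 or 3. Brca1 was well above background on no EC or IC channel. In IT vs ET it differed by 0.74, which was not called in limma but was called with the methods' t-test.

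**Figure D5:**
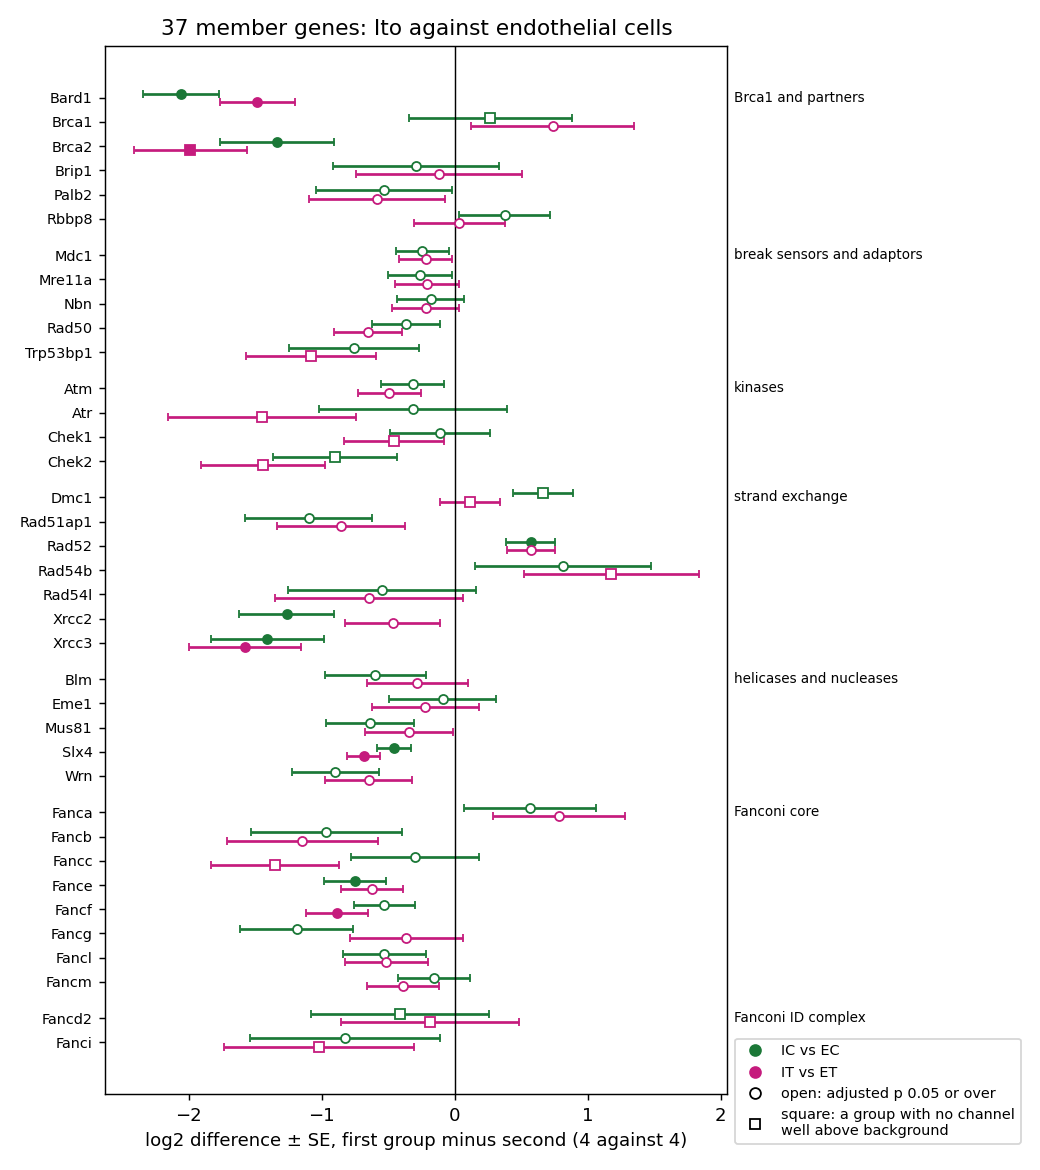
Log2 difference with its SE for each of the 37 genes (probe with the highest variance) between Ito and endothelial cells, controls and TME apart, ordered by role; filled points had an adjusted p under 0.05 in limma, and squares mark a comparison in which a group had no channel well above background. Most points lie below 0, Bard1, Brca2, Slx4 and Xrcc3 are filled in both, and Rad52 lies above 0.

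Most of these calls moved with single samples or with the background correction. Bard1 kept its call in IC vs EC in every alternative fit, while Brca2, Xrcc2, Xrcc3, Fance and Slx4 each lost theirs without at least 1 replicate, and Slx4 did so in each of the 4 such fits. In IT vs ET the calls of Fancf and Xrcc3 were lost without replicate 1, 3 or 4. That of Rad50 was lost without replicate 1, 2 or 4 and that of Brca2 without replicate 2. Fancf, Xrcc3 and Brca2 were also not called in the fit of the 2 groups alone (adjusted p = 0.215, 0.135 and 0.0921 in limma). With the methods' t-test, Bard1 (adjusted p = 0.0579), Brca2, Xrcc3, Fancf, Fancc and Rad50 were not called in IT vs ET. Without replicate 3 the count in IC vs EC was 2 beside 4.68% of all probes, and without replicate 2 it was 5 beside 6.6%. Other lists moved the same way as the members in part: 5 of 17 end joining probes were called lower and 3 higher in IC vs EC, the 3 being probes of Dclre1c. Hepatocyte markers were summed at 13.39 to 13.50 in EC and 15.60 to 17.53 in IC, and Kupffer markers at 13.87 to 14.42 in EC and 15.94 to 17.50 in IC. In the TME pair hepatocyte markers were summed at 12.31 to 14.01 in ET and 14.98 to 17.24 in IT. Kupffer markers overlapped there, at 14.43 to 14.98 in ET and 13.14 to 17.35 in IT. Of the Ito markers Des was at 7.75 in EC and 5.62 in IC, Acta2 at 8.61 and 6.45, Col1a1 at 7.86 and 5.61 and Pdgfrb at 9.60 and 8.52, all lower in the Ito fraction, while Gfap was at 3.38 and 3.93 and Lrat at 3.47 and 4.16. Their part in the members' differences was not tested.

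Promoter windows were at hand for 30 of the member genes, as 31 windows of RefSeq on GRCm38.p6 that run from 250 bases before to 50 after a start site. The letters TTTCCCGC, the form of the site of the E2F factors that drive replication genes, were found on either strand in 5 windows (16.1%), against 1.07% of all 32851 windows. These were the windows of Bard1, Brca2, Chek2, Fancg and Mdc1. Of these 5 genes, Bard1, Brca2, Chek2 and Mdc1 rose in both tumor comparisons and Fancg in neither, beside 25 of all 37 genes in TM vs KC and 29 of 37 in TP vs KT. The related letters TTTGGCGC were in 3.23% of member windows and 0.514% of all, CCAAT in 61.3 and 37.4%, and GGGCGG in 64.5 and 35.7%, each on either strand. TTTGAA was in 6.45% of member windows and 17.9% of all. The Brca1 window held CCAAT and neither of the TTTCCCGC and TTTGGCGC letters.

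The 60 bases around the match are shown for the 3 of these genes that rose most, with the TTTCCCGC letters, or their reverse complement where the match is on the opposite strand, in capitals. On GRCm38.p6 they lie at chr1:71103148-71103207 (minus strand), chr5:150522427-150522486 and chr5:110839805-110839864 (plus strand), and the match begins 209, 168 and 152 bases before the start site. A match of letters is a description and not a measured site.
Bard1: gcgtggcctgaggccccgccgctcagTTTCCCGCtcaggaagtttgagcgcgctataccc
Brca2: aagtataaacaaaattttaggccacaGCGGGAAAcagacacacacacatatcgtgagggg
Chek2: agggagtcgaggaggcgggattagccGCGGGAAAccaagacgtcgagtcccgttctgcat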

How the data were processed

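RNA of 32 samples in 8 groups was measured on 16 two-color Agilent mouse arrays. The authors deposited scanner intensities per spot (Agilent Feature Extraction 10.7.3.1) and a table of normalized intensities per probe and sample; the study's methods name quantile normalization. The log2 of the deposited table was used, since each column followed its own channel of the scanner output (rank correlation 0.9996 to 0.9999). Control spots were left out, spots of a probe were averaged in the scanner output, and no spot was saturated. A probe counted as well above background where most of its spots were marked so in that channel.

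Groups came from the sample labels. A single limma fit of 32 channels to 8 groups gave the 8 comparisons, adjusted by Benjamini-Hochberg over 55681 probes, and single values were also tested by exact permutation. A gene with several probes was represented by its most variable probe. Named by rule were Brca1 and its partners, and up to 8 genes called in each direction of a comparison, those well above background on all 4 channels of the higher group first; genes that miss this rule were named after their values were seen. The members and lists were chosen with earlier results of these data known. Accessions of 51 of the 54 probes matched RefSeq. The array files name no genome build for the probes, and 8 of 54 probe positions lay inside the gene's span on GRCm38.p6, so positions are given as in the files.

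Alternatives were the scanner output, other background corrections and normalizations, a filter on dim probes, the array as a replicate block, the 2 groups alone, the methods' t-test, a stricter threshold, subtraction of TP vs TM, and leaving out each replicate. The fit was tested on simulated data. R 4.3.3 with limma 3.58.1 was used. The number of arrays limits the precision. Some items are not reported here.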

Additional observations from a re-analysis of the deposited data

Results flagged for a closer look

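Single samples stood apart from the other 3 of their group in 13 of 120 groups tested (15 genes in 8 groups, Dixon's test at the 95% level), where chance flags about 1 in 20. Brca1 was at 2.914 in EC replicate 2 against 2.143 to 2.273 in the others, none of them well above background. Chek2 was at 2.774 in IC replicate 4, at 3.215 in IT replicate 3 and at 2.513 in KC replicate 4, also not well above background. Replicate 4 stood apart in Ito and Kupffer cells, whose arrays of that number ran against the others: Fancl was at 7.912 in IC replicate 4 against 7.56 to 7.583, Rbbp8 at 12.2 in IC replicate 4 against 12.47 to 12.5, Slx4 at 9.155 in IC replicate 4 against 9.434 to 9.452, Slx4 at 10.03 in KT replicate 4 against 10.31 to 10.34, and Fanca at 11.93 in KT replicate 4 against 11.63 to 11.66. Rbbp8 was at 10 in IT replicate 2 against 12.19 to 12.51, the widest gap of the 13. Rad51ap1 was at 7.819 in ET replicate 2 and at 6.944 in KT replicate 3, and Fancc at 6.09 in TM replicate 3. The cause of these gaps was not tested.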

How the results depend on the processing

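None of the 37 called differences of named members and Brca1 changed direction under the alternatives that were run. Of 31 that were not called, 13 changed sign in 26 of 372 values, all of them differences of Bard1, Brca2, Brip1, Palb2 or Rbbp8. With the TP minus TM difference subtracted, 0 member probes were called in ET vs EC, IT vs IC and KT vs KC, beside 0.686, 0.35 and 0.456% of all probes, and Brca1 differed by 2.45, 2.92 and 2.35; with normexp, loess and Aquantile values as well, Brca1 differed by 1.00 in KT vs KC and was not called. The methods' t-test called 0 in KT vs KC (Brca1 3.86, adjusted p = 0.0861), 0 in TP vs TM and 2 in IT vs ET, beside 0.088, 0.361 and 4.14% of all probes. Of the 2 in IT vs ET, 1 was Brca1, which limma did not call there. In TP vs TM the count was 0 with the 75th percentile, 0 with the compared groups alone and 2 with the array as a replicate block, beside 0.853, 0.487 and 3.97%. Same-numbered samples deviated together on the endothelial arrays (correlations of 0.05 to 0.40) but against each other on array 4 of the Ito and Kupffer cells (-0.64 and -0.57). On the other Ito, Kupffer and tumor arrays the correlations ran from -0.33 to 0.23, with negative ones in each of these cell types. Not every pair was thus over 0.1 and the numbers were not taken as pairs. The replicate block changed no Brca1 call (3.96, 4.43, 3.86 and 1.51). At an adjusted p under 0.001 and 4-fold the counts were 0 in TP vs TM, 17 in TM vs KC, 24 in TP vs KT, 1 in IC vs EC and 0 in IT vs ET, beside 0.408, 14.3, 15.9, 1.24 and 0.871% of all probes. IT vs ET had 12 calls with the filter on dim probes, beside 17.1% of the 29013 probes kept, and 4 with the compared groups alone, beside 3.71% of all probes. Leaving out each replicate gave 1 to 5 calls in IT vs IC, beside 0.154 to 7.83% of all probes. The counts were 1 to 2 in KT vs KC (0.192 to 3.45%) and 0 to 10 in TP vs TM (0.95 to 4.44%). In TM vs KC there were 33 to 36 (32.9 to 37.7%) and in TP vs KT 37 to 39 (37.8 to 40.4%). They were 2 to 7 in IC vs EC (4.68 to 10.5%) and 4 to 7 in IT vs ET (3.11 to 7.91%). The Brca1 difference in TP vs TM was 0.67 to 2.27 and was called without replicate 1. Among the other named members, 66 of the values under an alternative lost their call and 4 gained one. The causes were not tested. The control channels of Brca1 give only a bound.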
